A study of Macaca fascicularis with 64 samples.

Results

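The acute phase proteins are plasma proteins that the liver secretes, and whose amount in blood shifts during infection or injury. The set described here holds 10 genes that were listed by name, with earlier results of these data known: CRP, SAA4, ORM1, AZGP1, HP, HPX, SERPINA3, FGA, FGB and FGG. All 10 had a row among the 28141 genes measured. 9 were listed under the symbol and SAA4 was matched through its RefSeq gene identifier. Levels are FPKM, a value scaled for gene length and for mapped fragments, so that genes can be set side by side.

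RNA was sequenced from tissues of cynomolgus monkeys (Macaca fascicularis), a macaque used widely as a primate model, in a series on deficiency of SIRT6, a nuclear deacylase that acts on histones. The newborn libraries came from SIRT6 knockout monkeys (KO2 and KO3) and wild-type monkeys (WT2 and WT3), with 2 libraries each of liver, kidney, lung, heart, thymus, muscle and brain. The fetal libraries were wild type, from month 4 and month 2 of gestation, with 2 libraries for each month of brain and of muscle. The labels name no agent, age in days or allele, and the KO and WT titles were read as 4 animals, so each newborn comparison has n = 2 KO and 2 WT animals.

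In the acute phase response, cytokines of the interleukin 6 and interleukin 1 families reach hepatocytes and act through STAT3, the C/EBP factors and NF-kappa B, and glucocorticoids strengthen the response. Positive acute phase genes such as CRP and haptoglobin are then transcribed more, and negative ones such as albumin and transthyretin less. Fibrinogen, haptoglobin, hemopexin and antichymotrypsin are also made by the resting liver. SAA4 is known in humans as a serum amyloid A that is made constitutively.

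SIRT6 itself had 3.07 to 12.4 FPKM in KO tissues and 6.18 to 12.4 FPKM in WT tissues, and did not pass the test in any of the 7 tissues (adjusted p of 0.54 to 0.94, limma with Benjamini-Hochberg adjustment over all genes tested). The labels do not say which part of the gene is altered, so the level of the whole gene checks little. Depth is unknown from FPKM. The liver label was checked against 12 hepatocyte markers, of which 11 were tested and together made up 7.32% and 8.72% of the total FPKM in KO livers, against 11.3% and 11.2% in WT livers. The exception was transferrin (TF), at 0.191 FPKM or less in each liver, KO and WT alike. Its row may be a failed estimate, which was not tested, so the value does not show that TF is unexpressed. Albumin (ALB) had 15842 and 28324 FPKM in KO livers, against 33175 and 23857 FPKM in WT livers, and did not pass (adjusted p = 0.55). In whole tissue, fewer cells of a type and less RNA per cell cannot be told apart.

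In newborn liver the acute phase genes were lower in KO than in WT, and ORM1 and CRP had the lowest changes of all genes tested. 8 of the 10 passed the test in the lower direction and 0 in the higher, where 0.836% of the 12207 genes tested passed lower and 0.262% higher. Earlier results were known when the set was chosen, so the count describes these 10 genes only. In all 10 genes each KO library lay below each WT library, as it did in 25% of the genes tested. Together they made up 0.782% and 1.66% of the total FPKM in KO livers, against 4.57% and 8.19% in WT livers. Changes are given as log2 of KO over WT on the log2(FPKM + 1) scale, relative to the median change of the genes tested (-0.19 in liver). The median over the 10 genes was -3.16 on that scale.

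CRP is a pentraxin that binds phosphocholine on microbes and dying cells and starts the complement cascade. It had 2.42 and 2.72 FPKM in the libraries of KO2 and 0.660 and 0.584 in those of KO3, against 285 and 290 in those of WT2 and 683 and 720 in those of WT3. The KO mean was 0.323% of the WT mean, and the highest KO library reached 0.956% of the lowest WT library. The relative log2 change was -7.36 (SE 0.57, adjusted p = 0.00031), the second lowest of the 12207 genes. SAA4, an apolipoprotein of high density lipoprotein, had 5.81 and 4.00 FPKM in KO2 and 14.9 and 16.6 in KO3, against 388 and 385 in WT2 and 2659 and 2671 in WT3. Its relative change was -6.49 (SE 0.80, adjusted p = 0.0038). The WT animals themselves stood 2.78 log2 units apart for SAA4, which is the widest gap between animals of one genotype among the 10 genes.

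ORM1 encodes orosomucoid, a glycoprotein that binds basic drugs and damps immune responses. Its libraries held 5.86 and 6.53 FPKM in KO2 and 19.1 and 18.3 in KO3, against 1022 and 1038 in WT2 and 4992 and 5071 in WT3. The relative change was -7.39 (SE 0.71, adjusted p = 0.00075), the lowest of the genes tested in liver. ORM2, a near-identical copy, was not analysed here, and no source used here says how reads that fit both copies were assigned. AZGP1 encodes zinc-alpha-2-glycoprotein, a secreted protein linked to lipid breakdown in fat. It had 5.12 and 4.35 FPKM in KO2 and 5.87 and 6.61 in KO3, against 285 and 291 in WT2 and 394 and 402 in WT3. KO livers thus held 1.6% of the WT mean, with a relative change of -5.53 (SE 0.45, adjusted p = 0.00031) and little spread between animals of a genotype.

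HP, haptoglobin, captures free hemoglobin, and HPX, hemopexin, captures free heme. HP had 329 and 320 FPKM in KO2 and 1221 and 1204 in KO3, against 6764 and 6786 in WT2 and 11132 and 12025 in WT3, where it was the highest of the 10 genes. It fell by 3.63 on the relative log2 scale (SE 0.53, adjusted p = 0.009), and reads shared with its relative HPR may add to its value. HPX had 654 and 943 FPKM in KO2 and KO3, against 1830 and 2540 FPKM in WT2 and WT3. The libraries did not overlap, but its relative change of -1.27 (SE 0.36) did not pass (adjusted p = 0.085). SERPINA3, antichymotrypsin, inhibits neutrophil cathepsin G. Its libraries held 264 and 262 FPKM in KO2 and 229 and 240 in KO3, against 1445 and 1474 in WT2 and 2288 and 2300 in WT3. The KO mean was 13.3% of the WT mean, and the relative change was -2.69 (SE 0.38, adjusted p = 0.0063).

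FGA, FGB and FGG encode the alpha, beta and gamma chains of fibrinogen, which assemble in the hepatocyte and are cut by thrombin to form fibrin. FGA had 470 and 1015 FPKM in KO2 and KO3, against 2280 and 4314 FPKM in WT2 and WT3, a relative change of -1.99 (SE 0.44, adjusted p = 0.046). FGG had 888 and 1834 FPKM in KO livers, against 4166 and 7201 FPKM in WT livers, a relative change of -1.91 (SE 0.41, adjusted p = 0.039). FGB had 1023 and 3242 FPKM in KO livers, against 5226 and 7565 FPKM in WT livers, and its change of -1.60 (SE 0.47) did not pass (adjusted p = 0.11). The ratio of FGG to FGA varied little between the livers, and that of FGB to FGA varied more. The FGG level was 1.89 and 1.81 times that of FGA in KO2 and KO3, against 1.83 and 1.67 times in WT2 and WT3. The FGB level was 2.18 and 3.19 times that of FGA in KO livers, against 2.29 and 1.75 times in WT livers. KO3 stood above KO2 by 1.11 log2 units for FGA, by 1.66 for FGB and by 1.05 for FGG.

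**Figure D1:**
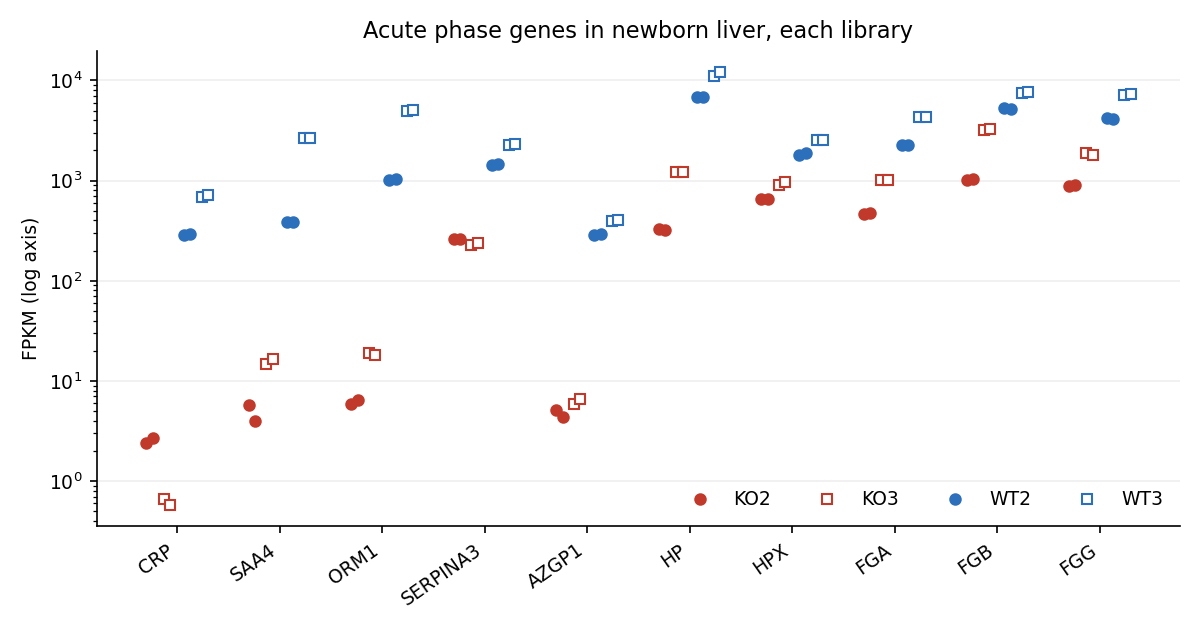
Level of each of the 10 genes in each newborn liver library (FPKM, log axis), with KO animals in red left of WT animals in blue, filled circles for animals numbered 2 and open squares for animals numbered 3. The red points lie below the blue ones for each gene, from a gap of over 2 decades for CRP to the highest KO library of FGB at 63.6% of its lowest WT library.

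The repeat libraries of an animal differed by 1.45-fold at most for these genes in liver, while animals of a genotype stood up to 2.78 log2 units apart. CRP and AZGP1 also passed with any 1 of the 4 animals left out. ORM1 (adjusted p = 0.074) and HP (0.073) missed the threshold without KO2. SAA4 (0.13 and 0.06) and SERPINA3 (0.077 and 0.057) missed it without KO2 and without KO3, and FGA (0.22, 0.067 and 0.1) and FGG (0.2, 0.061 and 0.076) missed it without KO2, without KO3 and without WT3. FGB passed without KO3 (0.049) or without WT2 (0.0035). With quantile normalisation 3 of the 10 passed, which were CRP, ORM1 and AZGP1, and with no filter on low genes 0 of 10 passed over 28141 genes, of which 2422 had an unadjusted p under 0.05.

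Markers of other cell types also differed between the genotypes in liver, and their part in the result was not tested. Of the 10 macrophage markers tested, 2 passed lower and 0 higher. Unadjusted, 9 had a p under 0.05, as did 1796 of all 12207 genes tested. The 10 together summed to 31.8 and 269 FPKM in KO livers, against 1114 and 943 FPKM in WT livers. MARCO, a scavenger receptor of resident macrophages, had 0.930 and 12.03 FPKM in KO livers, against 96.5 and 89.96 FPKM in WT livers (relative log2 change -4.04, SE 0.74, adjusted p = 0.025). Of 12 erythroid markers, 1 passed lower and 2 higher, with 11 at an unadjusted p under 0.05. The 12 had a median relative log2 change of 2.38, with 1 marker, HBB, below 0. They summed to 2176 and 3173 FPKM in KO livers, against 4664 and 3301 FPKM in WT livers, and without HBB to 1306 and 2746 FPKM in KO livers, against 493 and 116 FPKM in WT livers. The beta globin HBB passed lower, at 870 and 428 FPKM in KO livers, against 4172 and 3186 FPKM in WT livers. The zeta globin HBZ (adjusted p = 0.00057) and the alpha globin chaperone AHSP (0.011) passed higher.

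Of 5 hepatoblast markers tested, 0 passed lower and 1 higher, DLK1, a surface protein of fetal hepatoblasts, at 831 and 471 FPKM in KO livers, against 134 and 95 FPKM in WT livers (adjusted p = 0.025). The fetal albumin relative AFP had 142 and 558 FPKM in KO livers, against 79.1 and 71.1 FPKM in WT livers, and did not pass (adjusted p = 0.16). The hepatoblast markers summed to 1207 and 1483 FPKM in KO livers, against 628 and 431 FPKM in WT livers. Of 9 neutrophil markers tested, 1 passed higher and 0 lower, the colony stimulating factor receptor CSF3R (adjusted p = 0.033), and they summed to 572 and 1045 FPKM in KO livers, against 1641 and 137 FPKM in WT livers. Of the 11 hepatocyte markers tested, 1 passed lower and 0 higher. It was the lipoprotein gene APOC3, at 1704 and 946 FPKM in KO livers, against 3667 and 5246 FPKM in WT livers (adjusted p = 0.048). Unadjusted, 6 of the 11 had a p under 0.05, as did 1796 of all 12207 genes tested. The median relative log2 change of the 11 was -0.79, beside -3.16 for the 10 acute phase genes. The 11 ran from -2.29 for CPS1 to 0.19 for APOA1, with 9 below 0.

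Other positive acute phase genes gave no call in liver. Of 26 tested, 0 passed in either direction. Unadjusted, 11 had a p under 0.05, as did 1796 of all 12207 genes tested. Of the 26, 23 had a relative change below 0, with a median of -0.67. The inducible serum amyloids had large differences with a wide spread. SAA1 had 0.130 and 4.29 FPKM in KO livers, against 11.2 and 265 FPKM in WT livers (relative change -4.36, SE 1.16, adjusted p = 0.1). SAA2 had 0.899 and 9.82 FPKM in KO livers, against 20.9 and 991 FPKM in WT livers (-4.84, SE 1.38, adjusted p = 0.12). WT3 was far above WT2 for both, as it was for SAA4 and ORM1. CD14, the co-receptor for endotoxin, had 9.37 and 15.8 FPKM in KO livers, against 48.7 and 152 FPKM in WT livers (adjusted p = 0.055). The complement genes C9 (adjusted p = 0.13) and C4BPA (0.22) and the siderophore binder LCN2 (0.18) were lower in mean and did not pass.

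SERPINA1, the antitrypsin gene, is the most abundant of that list and was singled out after its values were seen. It had 18170 and 30925 FPKM in KO livers, against 19245 and 11646 FPKM in WT livers, and its relative change was 0.85 (SE 0.32, adjusted p = 0.37). Of 9 negative acute phase genes tested, 0 passed, with a median relative change of -0.39. Unadjusted, 4 had a p under 0.05, as did 1796 of all 12207 genes tested. Transthyretin (TTR) had 5731 and 5512 FPKM in KO livers, against 8432 and 16115 FPKM in WT livers (adjusted p = 0.16). The fetuin AHSG (adjusted p = 0.18), the vitamin D binder GC (0.3), APOA2 (0.34) and the retinol binder RBP4 (0.45) did not pass either.

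**Figure D2:**
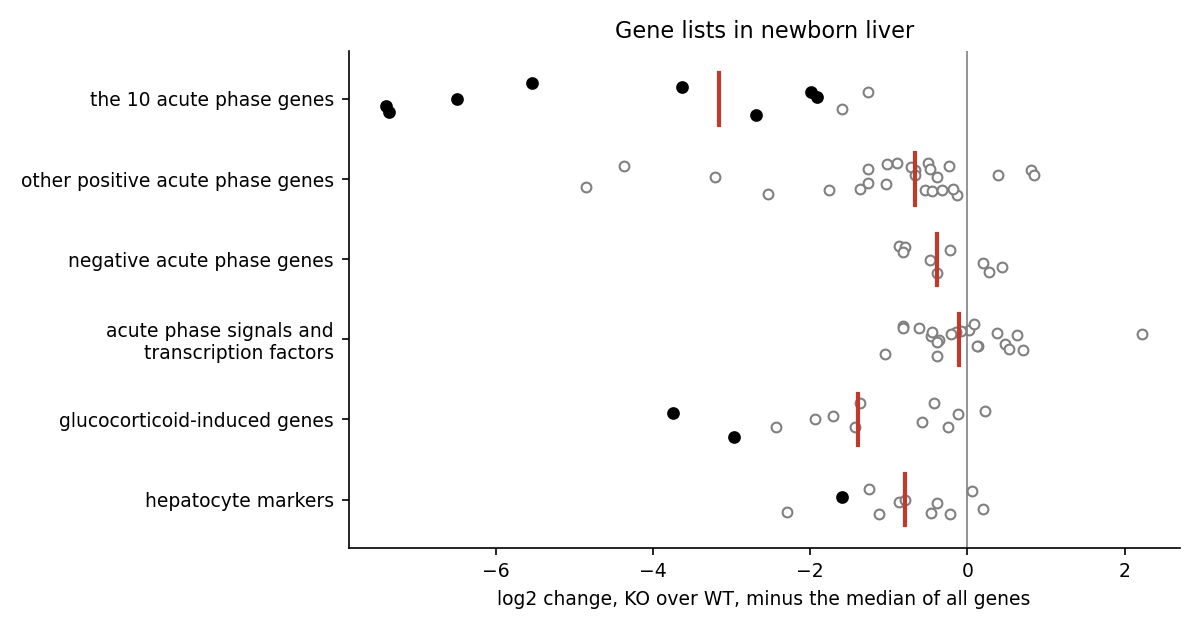
Relative log2 change of KO over WT in newborn liver for each gene tested of 6 lists, with filled points for an adjusted p under 0.05, open points for the rest and a red bar at the list's median. The 10 acute phase genes have a median of -3.16 and 8 filled points, and the other positive acute phase genes have a median of -0.67 and 0 filled points.

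The signals and transcription factors of the response gave 0 calls among 22 genes tested in liver, with a median relative change of -0.11. Unadjusted, 1 had a p under 0.05, as did 1796 of all 12207 genes tested. STAT3, which carries the interleukin 6 signal to the nucleus, had 41.2 and 20.6 FPKM in KO livers, against 68.8 and 71.6 FPKM in WT livers (relative change -1.05, SE 0.48, adjusted p = 0.26). HNF4A, a master factor of hepatocyte genes, had 15.7 and 27.3 FPKM in KO livers, against 37.3 and 49.2 FPKM in WT livers (adjusted p = 0.36). SOCS3, which is induced by STAT3 and blocks it, varied most between animals, at 230 and 9.80 FPKM in KO2 and KO3, against 27.9 and 4.18 FPKM in WT2 and WT3 (adjusted p = 0.45). IL6ST, the shared signalling chain of the interleukin 6 receptors, did not pass (0.4), and neither did ATF6 (0.52) or IL1R1 (0.52). The cytokine genes IL6, IL1B, TNF, OSM and LIF averaged below 1 FPKM and were not tested.

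Of 12 glucocorticoid-induced genes tested in liver, 2 passed lower and 0 higher, with a median relative change of -1.39. TAT, a tyrosine-degrading enzyme, had 21.7 and 9.54 FPKM in KO livers, against 214 and 256 FPKM in WT livers (-3.74, SE 0.49, adjusted p = 0.0047). G6PC, which releases glucose from the liver, had 31.0 and 28.5 FPKM in KO livers, against 281 and 266 FPKM in WT livers (-2.97, SE 0.42, adjusted p = 0.0063). KLF9 (adjusted p = 0.079), PCK1 (0.11), SGK1 (0.15) and FKBP5 (0.17) did not pass. Of 5 receptors tested that clear acute phase proteins, 1 passed lower and 0 higher. It was CD163, the macrophage receptor for haptoglobin and hemoglobin complexes, at 0.592 and 8.07 FPKM in KO livers, against 61.7 and 33.6 FPKM in WT livers (-3.43, SE 0.73, adjusted p = 0.045). FCGR1A (adjusted p = 0.39), SCARB1 (0.57), LRP1 (0.91) and FCGR2A (0.97) did not pass.

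In newborn kidney 7 of the 10 genes averaged 1 FPKM or more and were tested. 3 of these passed lower in KO and 0 higher, where 4.76% of 13937 genes passed lower and 1.02% higher. CRP, AZGP1 and SERPINA3 were the 3, all of which had passed lower in liver. In 4 of the 7 tested genes each KO library lay below each WT library, as in 23.7% of all genes tested. CRP had reached the filter only through its WT libraries. Over all genes 664 passed lower and 142 higher, and with quantile normalisation these counts were 538 and 247, with the same 3 acute phase genes passing.

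SERPINA3 had the largest change of the 3, at 2.77 and 3.23 FPKM in KO2 and 0.945 and 0.788 in KO3, against 13.8 and 13.4 in WT2 and 19.9 and 18.8 in WT3. Its relative log2 change was -2.62 (SE 0.41, adjusted p = 0.01). AZGP1 had 1.58 and 1.09 FPKM in KO2 and 2.01 and 1.09 in KO3, against 13.1 and 11.5 in WT2 and 6.57 and 5.58 in WT3 (-1.96, SE 0.38, adjusted p = 0.019). CRP had 0.234 and 0.172 FPKM in KO2 and was listed at 0 in both libraries of KO3, against 2.35 and 2.39 FPKM in WT2 and 2.34 and 1.99 FPKM in WT3. Its relative change was -1.53 (SE 0.34, adjusted p = 0.032), which the added 1 FPKM makes smaller than the ratio of the levels. Without WT2 or without WT3 the mean of CRP lay under 1 FPKM and it was not tested. AZGP1 missed the threshold without WT2 (adjusted p = 0.17), and SERPINA3 missed it without WT3 (0.066).

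The fibrinogen beta chain was the most abundant of the 10 in kidney. FGB had 17.4 and 7.91 FPKM in KO2 and KO3, against 21.9 and 69.3 FPKM in WT2 and WT3, without overlap, and did not pass (-1.61, SE 0.53, adjusted p = 0.11). FGA had 1.99 and 0.0496 FPKM in KO kidneys, against 2.98 and 1.43 FPKM in WT kidneys (adjusted p = 0.44). FGG had 2.71 and 0.0695 FPKM in KO kidneys, against 1.81 and 1.38 FPKM in WT kidneys (0.84). HP had 3.04 and 0.0679 FPKM in KO kidneys, against 4.12 and 5.94 FPKM in WT kidneys (-1.41, adjusted p = 0.18). The repeat kidney libraries of WT3 stood apart for several of these genes, at 2.71 and 0.0537 FPKM for FGG, 2.17 and 0.690 for FGA and 8.87 and 3.02 for HP, as well as 9.28 and 0.863 for ALB. For FGB they were at 69.2 and 69.5 FPKM. ORM1, HPX and SAA4 were at 1.31 FPKM or less in each kidney, as the mean of its libraries.

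Kidney levels were also set against the liver of the same animal. ALB in kidney was 0.14% and 0.00375% of its liver level in KO2 and KO3, against 0.0681% and 0.0213% in WT2 and WT3. AZGP1 was far above that, at 28.1% and 24.8% in KO animals, against 4.25% and 1.53% in WT animals. It was lower in KO in both organs, at 4.74 and 6.24 FPKM in liver, against 288 and 398 in WT. In kidney it had 1.33 and 1.55 FPKM, against 12.3 and 6.08 in WT. ORM1, CRP and SAA4 were at 19.6%, 7.89% and 2.51% in KO2, against 0.0972%, 0.825% and 0.0752% in WT2. In KO3 they were at 0.637%, 0% and 0.751%, against 0.0232%, 0.309% and 0.0187% in WT3. SERPINA3 stood at 1.14% and 0.37% in KO animals, against 0.93% and 0.844% in WT animals, and FGB at 1.7% and 0.244%, against 0.418% and 0.916%. FGG stood at 0.305% and 0.00379% in KO animals, against 0.0434% and 0.0192% in WT animals.

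Kidney cell markers differed as well, and their part in the result was not tested. Of 10 proximal tubule markers, 7 passed lower in KO and 0 higher, and they summed to 327 and 334 FPKM in KO kidneys, against 1987 and 1932 FPKM in WT kidneys. MIOX, an inositol-degrading enzyme of the tubule, had 38.1 and 28.4 FPKM in KO kidneys, against 885 and 699 FPKM in WT kidneys (-4.50, SE 0.30, adjusted p = 0.0012). The transporter SLC13A3 (adjusted p = 0.0012) and the water channel AQP1 (0.0053) also passed lower. In liver 3 of those 10 markers were tested and 0 passed. Unadjusted, MIOX and GATM had a p under 0.05 (adjusted p = 0.054 and 0.14), as did 1796 of all 12207 genes tested in liver. Of 9 hepatocyte markers tested in kidney, APOA1 (adjusted p = 0.0023) and SERPINC1 (0.009) passed lower and 0 higher. Of 7 macrophage markers tested, CD68 passed lower (0.022) and 0 higher. Of 7 erythroid markers, HBB passed lower (0.0097) and HBZ higher (0.037). Of 5 hepatoblast markers, DLK1 passed lower (0.046) and 0 higher. Of 6 neutrophil markers, 0 passed and 0 had an unadjusted p under 0.05, which 3018 of all 13937 genes tested in kidney had.

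Among 19 other positive acute phase genes tested in kidney, 3 passed lower and 0 higher, with a median relative change of -0.04. LRG1, a leucine-rich glycoprotein of plasma, had 2.55 and 0.678 FPKM in KO kidneys, against 35.4 and 37.1 FPKM in WT kidneys (-3.89, SE 0.39, adjusted p = 0.0021). SERPINA1 had 98.3 and 75.5 FPKM in KO kidneys, against 309 and 314 FPKM in WT kidneys (-1.80, SE 0.29, adjusted p = 0.011), and LCN2 passed lower too (0.048). Of 7 negative acute phase genes tested, 3 passed lower and 0 higher, APOA1 (adjusted p = 0.0023), RBP4 (0.025) and the cortisol carrier SERPINA6 (0.049). Of 22 signals and transcription factors, 1 passed lower and 0 higher, HNF4A, at 4.68 and 16.7 FPKM in KO kidneys, against 36.8 and 43.7 FPKM in WT kidneys (adjusted p = 0.044), while CEBPD (0.18) and CEBPB (0.21) did not pass. Of 11 glucocorticoid-induced genes, 6 passed lower and 0 higher, led by PDK4 (0.0038), KLF9 (0.0041) and G6PC (0.0049). Of 5 clearing receptors, LRP1 passed higher (0.037) and 0 lower, and CD163 (0.091) and FCGR1A (0.33) did not pass.

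**Figure D3:**
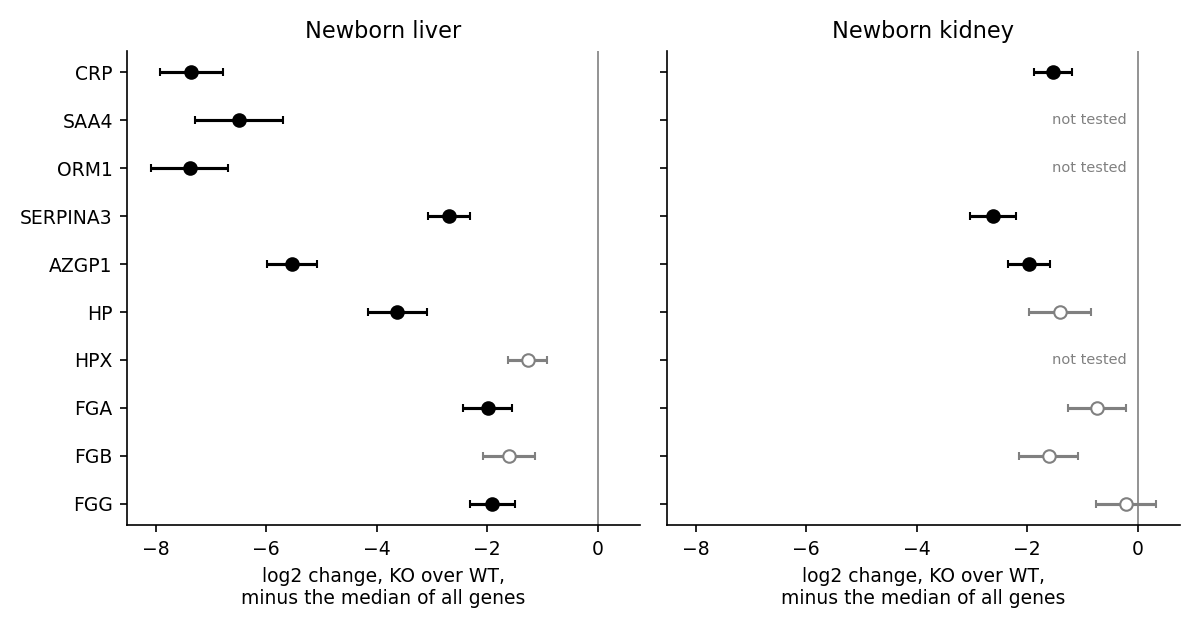
Relative log2 change of KO over WT for the 10 genes in newborn liver (left) and kidney (right), with bars of 1 standard error, filled points for an adjusted p under 0.05 and open points for the rest. In liver the changes lie between -7.39 and -1.27 and 8 points are filled, and in kidney 3 of 7 are filled, SERPINA3, AZGP1 and CRP.

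The KO change in liver was tested against that in kidney, from each animal's own difference. CRP and AZGP1 passed with a lower change in liver, where 0.479% of 13780 genes passed lower and 0.82% higher. Relative to all genes the difference was -5.86 for CRP (SE 0.73, adjusted p = 0.019) and -3.61 for AZGP1 (SE 0.65, adjusted p = 0.039). CRP averaged 0.101 FPKM in KO kidneys and 2.27 FPKM in WT kidneys, and AZGP1 averaged 1.44 and 9.17 FPKM. With 1 FPKM added, neither could fall as far in kidney as it did in liver. For these genes the test therefore cannot decide whether the KO change is particular to liver. ORM1 (-7.16, SE 1.13, adjusted p = 0.033) and SAA4 (-6.32, SE 1.06, adjusted p = 0.034) also lay past the threshold, but they entered this fit only through their liver level and were below the kidney filter, so their values say little beyond the liver change. SERPINA3 (-0.11, SE 0.80, adjusted p = 0.91) and FGB (-0.03, SE 1.08, adjusted p = 0.96) had almost the same estimate in both organs, with wide errors. HP, FGA, FGG and HPX lay between -2.26 and -1.23 and did not pass (adjusted p of 0.41 to 0.59). CRP, ORM1, SAA4 and AZGP1 each lost the call without KO2, as did CRP, SAA4 and AZGP1 without KO3 and AZGP1 without WT3. With a pseudocount of 0.1 in place of 1, 0 passed.

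In the 5 other newborn tissues limma called 0 of the 10 genes. The tests covered 3 genes in lung (2 at an unadjusted p under 0.05), 6 in heart (0), 7 in thymus (1), 0 in muscle and 2 in brain (0). Over all genes such a p was found for 963 of 13243 in lung and 1128 of 12256 in heart. It was found for 767 of 12961 in thymus and 1701 of 13392 in brain. Few genes at all passed there outside muscle. In lung 0% of 13243 genes passed lower and 0% higher, and in brain 0% of 13392 genes passed lower and 0% higher. In heart 0.0734% of 12256 genes passed lower and 0.106% higher, and in thymus 0.00772% of 12961 genes passed lower and 0% higher.

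Lung was the second site of SERPINA3, with 3.83 and 31.1 FPKM in KO2 and KO3, against 284 and 141 FPKM in WT2 and WT3. Each KO library lay below each WT library, as in 20.6% of the genes tested in lung, but the relative change of -3.84 (SE 0.88) did not pass (adjusted p = 0.41). HP in lung had 0.633 and 3.02 FPKM in KO animals, against 9.40 and 22.1 FPKM in WT animals, also without overlap (-2.43, SE 0.62, adjusted p = 0.44). SERPINA3 passed lower in lung when either KO animal was left out. ORM1 had 3.19 and 2.19 FPKM in KO lungs, against 5.45 and 1.45 FPKM in WT lungs.

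In thymus ORM1 had 11.4 and 14.8 FPKM in KO2 and 27.7 and 28.8 in KO3, against 5.29 and 6.59 in WT2 and 6.12 and 7.67 in WT3. Each KO library lay above each WT library, as in 9.81% of the genes tested in thymus, and the relative change of 1.66 (SE 0.48) did not pass (adjusted p = 0.7). The difference between the liver and the thymus change passed, at -9.06 (SE 0.74, adjusted p = 0.0087), where 0.381% of 13377 genes passed in either direction, and most of it is the liver change of -7.39. In KO animals the mean ORM1 level was higher in thymus, at 20.7 FPKM, than in liver, at 12.4 FPKM. That order held within each animal, at 13.1 against 6.19 FPKM in KO2 and 28.2 against 18.7 FPKM in KO3, though the ranges over animals overlapped. In WT animals liver held 472 times the thymus level. HP had 32.3 and 15.8 FPKM in KO thymus, against 13.2 and 29.1 FPKM in WT thymus (adjusted p = 0.92), and SERPINA3 had 12.2 and 7.19 FPKM, against 36.9 and 12.2 FPKM (0.7).

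In brain HPX had 2.69 and 3.64 FPKM in KO2 and 0.782 and 0.529 in KO3, against 0.0562 and 0.118 in WT2 and 0.249 and 0.0632 in WT3. Each KO library lay above each WT library, as in 10.7% of the genes tested in brain, and the relative change of 1.43 (SE 0.51) did not pass (adjusted p = 0.39). Its difference between the liver and the brain change, -2.70 (SE 0.75), did not pass either (adjusted p = 0.25), where 0.128% of 14110 genes did. HPX reached the filter in brain only through KO2, without which it was not tested. SERPINA3 in brain had 7.26 and 13.9 FPKM in KO animals, against 14.2 and 4.79 FPKM in WT animals (0.85). AZGP1 was listed at 0 in all 8 brain libraries.

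In heart the animal means of the fibrinogen chains, HP, HPX and ORM1 were higher in KO2 and WT2 than in KO3 and WT3. FGB had 1.84 and 0 FPKM in KO2 and KO3, against 4.36 and 0.0562 FPKM in WT2 and WT3. HP had 2.42 and 0.162 FPKM in KO2 and KO3, against 7.30 and 0.172 FPKM in WT2 and WT3. The repeat libraries of KO2 stood apart, at 4.65 and 0.192 FPKM for HP and 3.27 and 0.411 FPKM for FGB, so that for HP the KO2 mean rests on 1 library. ALB moved with them, at 27.9 and 0.427 FPKM in KO2 and KO3, against 35.3 and 0.493 FPKM in WT2 and WT3, and its part in these values was not tested. SERPINA3 had 4.26 and 7.47 FPKM in KO hearts, against 7.98 and 8.81 FPKM in WT hearts. In muscle the highest level of the 10 genes was that of SERPINA3 in WT2, at 2.03 FPKM.

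ALB was used to describe the traces outside liver, over 24 points of 6 tissues and 4 animals that share animals and libraries. On the log2(FPKM + 1) scale Pearson's r with ALB was 0.952 for FGG, 0.945 for FGA, 0.69 for HPX, 0.657 for FGB and 0.513 for HP. It was 0.458 for CRP, 0.423 for ORM1, 0.389 for SAA4, 0.37 for AZGP1 and 0.29 for SERPINA3. Spearman's rho was 0.907 for FGA, 0.892 for FGG, 0.844 for FGB, 0.772 for CRP and 0.711 for HPX. It was 0.586 for AZGP1, 0.559 for HP, 0.513 for ORM1 and 0.502 for SAA4. For SERPINA3 it was 0.234, the lowest of the 10 by either measure.

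**Figure D4:**
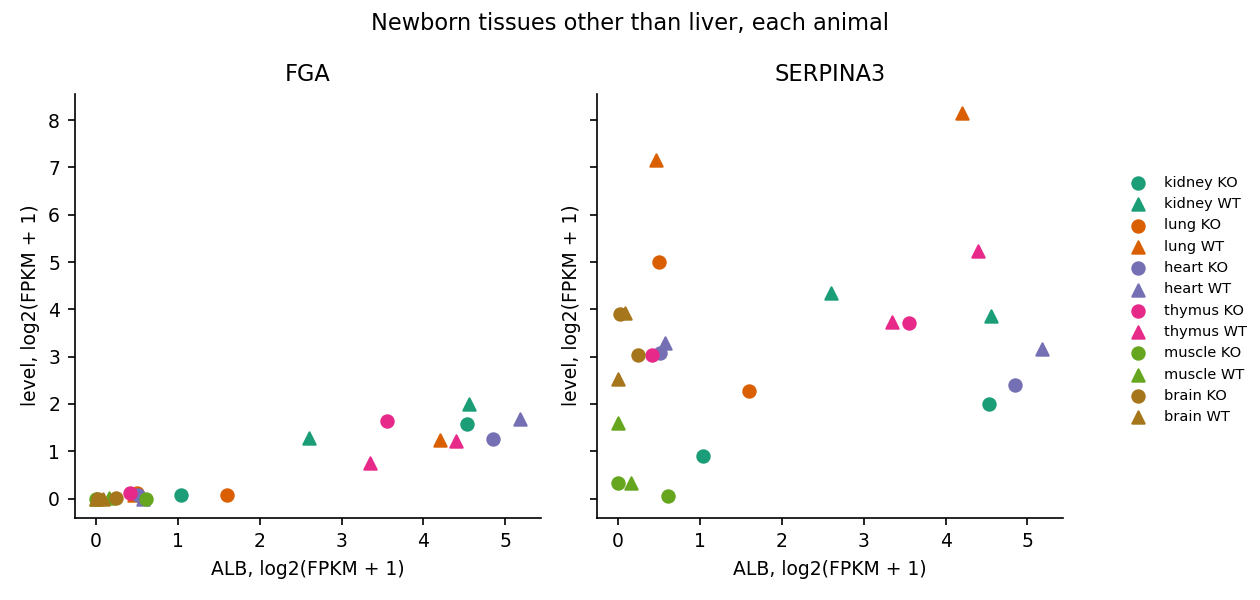
Level of FGA (left) and SERPINA3 (right) against that of ALB in the 6 newborn tissues other than liver, both as log2(FPKM + 1), with 1 point per animal and tissue, circles for KO and triangles for WT. FGA lies along a line with ALB (r = 0.945) and SERPINA3 does not (r = 0.29), with lung WT animals at the top.

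Liver was the first tissue of each of the 10 genes in WT animals, and of 9 of them in KO animals, ORM1 being the exception. In WT animals liver exceeded the next tissue by 8.82-fold for SERPINA3 (lung), 37.4-fold for AZGP1 (kidney), 140-fold for FGB (kidney) and 218-fold for CRP (kidney). For SAA4 the factor was 2300 (thymus) and for FGG 3330 (thymus). In KO animals it was 14.2-fold for SERPINA3 (lung), 3.81-fold for AZGP1 (kidney), 169-fold for FGB (kidney) and 7.81-fold for CRP (thymus). Overlap was read from the ranges over animals, without pairing the tissues of 1 animal. Between liver and the next tissue the animals overlapped in 1 of 10 genes in KO (ORM1) and in 0 of 10 in WT. Below that step, 34 of 50 neighbouring pairs overlapped in KO and 33 of 50 in WT. The WT liver order, from HP at 9177 FPKM down to AZGP1 at 343 FPKM, placed FGB, FGG, FGA, ORM1, HPX, SERPINA3, SAA4 and CRP between them. Each pair of neighbours in that order overlapped in its ranges over the animals. Within both WT2 and WT3, though, HP lay above FGB, FGB above FGG, FGG above FGA, HPX above SERPINA3 and SAA4 above CRP. The order differed between the 2 animals for FGA and ORM1, ORM1 and HPX, SERPINA3 and SAA4, and CRP and AZGP1. In KO livers FGB was highest at 2133 FPKM and CRP lowest at 1.60 FPKM.

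**Figure D5:**
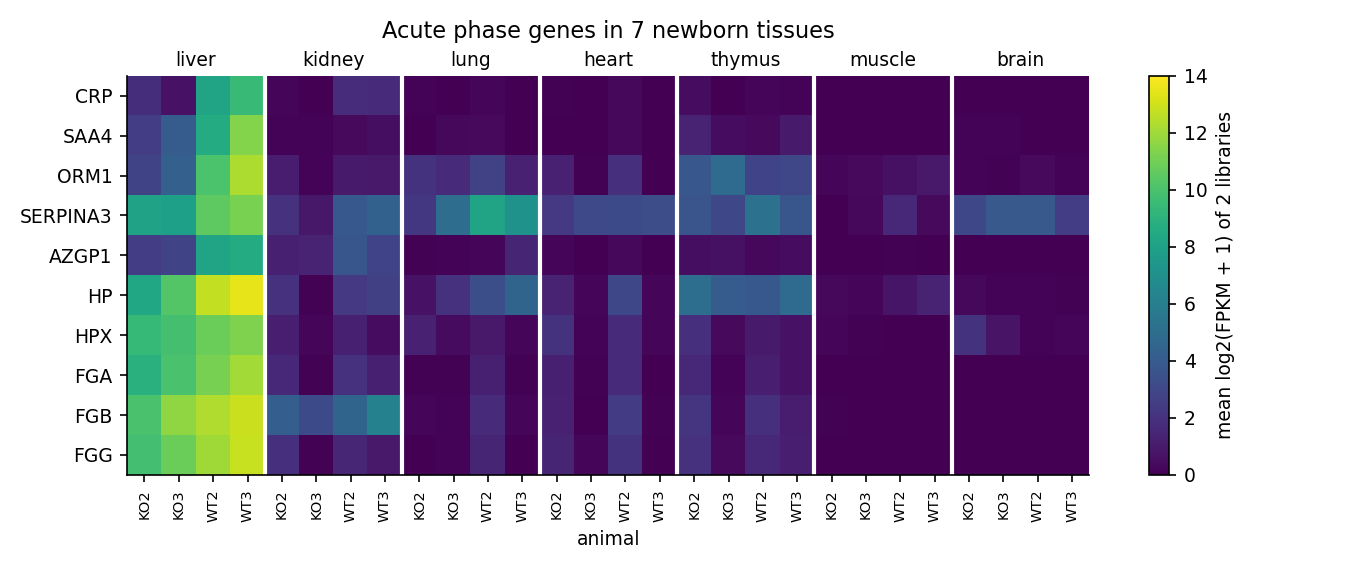
Mean log2(FPKM + 1) of the 2 libraries of each animal (columns, KO animals left of WT animals in each tissue) for the 10 genes (rows) in 7 newborn tissues, on a colour scale of 0 to 14. Within each WT animal the liver column is the brightest for each gene, and KO liver columns are darker than WT liver columns. In KO animals ORM1 is brighter in thymus than in liver, at 3.81 against 2.84 in KO2 and 4.87 against 4.30 in KO3. Colour outside liver includes SERPINA3 and HP in lung, SERPINA3, HP and ORM1 in thymus, and SERPINA3 in brain. In kidney it includes FGB (6.14 in WT3), SERPINA3 and AZGP1.

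Genes with the most similar pattern over the 28 newborn animal and tissue means were ranked by Pearson's r among 12833 genes, as a description, since liver against the other tissues makes up most of that pattern. Genes most like the mean of the 10 included XDH (r = 0.979), SPP2 (0.978), CYP2A26 (0.978) and F13B (0.976). XDH, xanthine dehydrogenase of purine breakdown, had 4.05 and 8.33 FPKM in KO livers, against 33.1 and 36.6 FPKM in WT livers. CRP was most like ACSM1 (0.987), CA5A (0.973), GCKR (0.972), URAD (0.97) and CFHR5 (0.951). ACSM1, a mitochondrial acyl-CoA synthetase, had 0.774 and 0.116 FPKM in KO livers, against 42.3 and 59.8 FPKM in WT livers. Of the other 9 genes of the set, AZGP1 (0.955) and SAA4 (0.953) were most like CRP and SERPINA3 (0.71) least.

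The fetal tissues, brain and muscle without liver, held little of the 10 genes. None averaged 1 FPKM, so that 0 of 10 were tested between month 4 and month 2, where 4.01% of 13114 genes passed in brain and 37.9% of 12352 in muscle. CRP was listed at 0 in all 8 libraries. The highest values were in muscle, where HPX had 0.295 and 0.165 FPKM at month 4, against 1.60 and 1.78 FPKM at month 2. FGB had 0.0699 and 0 FPKM at month 4, against 1.46 and 1.58 FPKM at month 2. In fetal brain HPX had 0.0720 and 0.605 FPKM at month 4, against 0.928 and 0.464 FPKM at month 2.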

How the data were processed

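Per the labels' protocols, RNA was taken with TRIzol, cleaned on RNeasy columns and made into TruSeq libraries for an Illumina HiSeq instrument. The authors deposited FPKM per gene and library in a newborn and a fetal table, each normalised by itself. Tools named in the submitters' processing notes are CASAVA, HISAT (0.1.6) and Cufflinks (2.0.2). No source used here gives the genome build, the annotation or the strand setting. FPKM keeps no read depth, so no counting intervals are given, and low values showed no steps from which reads could be recovered.

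Gene names are those of the tables, except that 721 of 11294 LOC identifiers were given their RefSeq symbol. No reference sequence or promoter was used. The log2(FPKM + 1) values of the 2 libraries of an animal were averaged. Genes whose mean over the tissue was 1 FPKM or more were fitted with limma 3.58.1 (lmFit, eBayes with trend) in R 4.3.3, 1 fit per tissue, and passed at a Benjamini-Hochberg adjusted p under 0.05 over all genes tested. Each log2 change is given minus the median of all genes tested, and its p tests the change before that subtraction. With 2 against 2 animals, an exact two-sided permutation test reaches p = 0.33 at the lowest. Nothing states that repeat libraries are separate pieces of tissue or that fetal libraries are separate fetuses, and fetal p-values then cover spread that may be technical. The fit was tested on simulated data.

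The 10 genes and the gene lists were chosen with earlier results of these data known. Named were the 10 genes, SIRT6, up to 6 genes of each list with the smallest p in liver and up to 3 in kidney, and the 5 genes most like the mean of the 10 and most like CRP. Of these, 1 gene is not reported here. SERPINA1 and TF in liver were added after their values were seen, and not each gene that the rule named is given with values. The tests of liver against thymus and brain, and FPKM rescaled to the same sum in each library, were also added after seeing the data. The other alternatives were a pseudocount of 0.1, a filter at 5 FPKM or none, quantile normalisation, median centring, libraries as the replicates, the animal as a correlated unit over libraries (statmod 1.5.0), a joint fit of the 7 tissues, a block by animal number, and each animal or fetal library left out in turn.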

Additional observations from a re-analysis of the deposited data

Results flagged for a closer look

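CRP and AZGP1 passed a test of the KO change in liver minus that in kidney, but their kidney levels bound the result. WT kidneys averaged 2.27 FPKM for CRP and 9.17 FPKM for AZGP1. With 1 FPKM added, neither could fall there as far as in liver, so the test cannot decide whether the change is particular to liver. Relative to all genes, the change in liver minus that in kidney was -5.86 for CRP (limma's adjusted p = 0.019) and -3.61 for AZGP1 (0.039). ORM1, at -7.16, and SAA4, at -6.32, also lay past the threshold, but both were at 1.21 FPKM or less in each kidney, below the filter there, so that their values are close to the liver change alone. With a pseudocount of 0.1 in place of 1, 0 of the 4 passed.

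ORM1 had each KO library below each WT library in liver, as in 25% of the genes tested there. In thymus each KO library lay above each WT library, as in 9.81% of the genes tested there. The difference of the liver and the thymus change was tested because this had been seen. It was -9.06 (SE 0.74, limma's adjusted p = 0.0087), most of which is the liver change of -7.39, and the thymus value did not pass (1.66, adjusted p = 0.7).

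HPX had each KO library below each WT library in liver, as in 25% of the genes tested there. In brain each KO library lay above each WT library, as in 10.7% of the genes tested there. The difference was -2.70 (SE 0.75) and did not pass (limma's adjusted p = 0.25), and HPX reached the filter in brain only through KO2, with 0.249 FPKM or less in each WT library.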

How the results depend on the processing

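Of the 140 values of the 10 genes in liver under the alternatives, 99 stayed on the same side of the threshold, 34 lost the call, 7 gained one and 0 changed direction. The count of 8 passing in liver was 3 with quantile normalisation, 3 with libraries centred on the median (CRP, ORM1 and AZGP1 each time), 0 with no filter, and 2 to 9 with an animal left out. It was 9 with the animal number as a replicate block, where FGB was added, and the block changed no other count. Deviations of same-numbered animals correlated at -0.0968 in liver to 0.0901 in thymus. With 2 animals per genotype, this cannot show whether same-numbered animals were handled together. In heart, ALB and several of the 10 genes were higher in both animals numbered 2.

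The kidney count of 3 was 0 with no filter and 1 to 4 with an animal left out. In lung the count of 0 was 2 with libraries as replicates, 1 with the animal as a correlated unit, 1 in 1 fit of the 7 tissues, and 0 to 2 with an animal left out (SERPINA3, and HP without KO3). With libraries as replicates it was 1 in thymus (ORM1) and 1 in brain (HPX), and with an animal left out 0 to 1 in brain (HPX without KO3). The count of 4 past the threshold between liver and kidney, which includes ORM1 and SAA4, was 0 with a pseudocount of 0.1, 0 with no filter, 2 with quantile normalisation, 1 with rescaled FPKM, and 0 to 4 with an animal left out. In fetal muscle the count of 0 was 1 with no filter, 2 with rescaled FPKM and 0 to 2 with a library left out.

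Directions changed only for values that did not pass. Relative log2 changes became -0.12 for ORM1 in lung with no filter, 0.31 and 0.093 for FGG in heart with a pseudocount of 0.1 and with rescaled FPKM, and -0.19 and -0.059 for FGA in thymus with a pseudocount of 0.1 and with no filter. The difference of liver and kidney became 0.066, 0.48 and 0.022 for FGB and 0.49, 0.13 and 0.25 for SERPINA3 with a pseudocount of 0.1, quantile normalisation and rescaled FPKM. With an animal left out, they ran in kidney from -1.60 to 0.17 for FGA and from -1.21 to 0.84 for FGG. They ran in lung from -0.75 to 0.83 for ORM1. In heart the range was from -1.20 to 0.59 for ORM1, from -2.16 to 0.031 for HP, from -1.70 to 0.32 for FGB, from -1.18 to 0.67 for FGG and from -0.56 to 1.34 for HPX. They ran in thymus from -0.29 to 1.12 for HP, from -1.19 to 1.15 for FGB, from -1.03 to 1.03 for FGG and from -0.24 to 1.13 for FGA. In brain the range was from -0.32 to 1.20 for SERPINA3. They ran in the difference of liver and kidney from -1.34 to 1.28 for FGB and from -0.53 to 0.31 for SERPINA3.

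Lists of other genes had 0 calls with no filter and up to 13 in liver and 10 in kidney under other settings. Levels in liver moved by less than 1 SD for 20 of 20 values when the median of libraries replaced the mean of animals. The cause of a lost call was not tested. With an animal left out, the lone animal is assumed to vary like the others. The promoter motif search was not run. 2 animals per genotype limit the precision, and FPKM gives no depth.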
